A study of Homo sapiens with 18 samples.

Results

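The subject is the difference between 2 cell lines in their transcriptional response to H2O2, measured gene by gene over 12 of the 18 RNA-seq samples of the series, those of untreated and H2O2-treated control and NRF2 ΔC cells. Both lines derive from ARPE-19, a human retinal pigment epithelium (RPE) line that arose spontaneously in culture, and both carry the Cas9 lentiviral vector. The control cells have the vector with no gRNA, whereas NRF2 ΔC is clone C1, in which exon 5 of NFE2L2, the gene for NRF2, was edited so that the 2 alleles have stop codons at positions 503 and 505. This is the last exon of the canonical transcript (chr2:178095036-178096736, minus strand, GRCh37). The 4 groups of 3 samples were control cells given water, control cells given 0.2 mM H2O2, NRF2 ΔC cells given water and NRF2 ΔC cells given 0.2 mM H2O2. Treatment lasted 8 h by the series' design and the published description, after 40 h of culture in 10 % serum by the design, although its opening names 1 % serum. The sample protocol differs, with 2 h after 22 h in 1 % serum. Since NRF2 ΔC is a single clone, what belongs to the edit and what belongs to the clone cannot be told apart.

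NRF2 is a transcription factor that the adaptor KEAP1 marks for degradation until oxidants modify KEAP1. It then pairs with small MAF proteins and binds antioxidant response elements near genes for glutathione synthesis, thioredoxin reduction, quinone reduction, heme breakdown and NADPH supply. Its C-terminal end contributes to transactivation. By the published description, the edit removes part of the domain that binds DNA and small MAF proteins, and all of the domain that binds CHD6. H2O2 in addition damages DNA, which engages p53 and cell cycle checkpoints, and disturbs translation and protein folding, which engages the integrated stress response through ATF4 and the unfolded protein response of the endoplasmic reticulum (ER).

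The difference in response was defined as the log2 fold change with H2O2 in control cells minus that in NRF2 ΔC cells, so that a positive value marks a gene whose response was higher, that is, rose more or fell less, in control cells. A gene is referred to as called where edgeR's quasi-likelihood test, adjusted by Benjamini-Hochberg over 13987 genes, gave p under 0.05. Without a replicate term, 3 genes were called (0.0214 % of those tested), 2 with a response higher in control cells (0.0143 %) and 1 higher in NRF2 ΔC cells (0.00715 %), and 806 had an unadjusted p under 0.05. Untreated and treated samples of the same line and number deviated together from their group means, with correlations of 0.521 to 0.821 over 6 pairs. With the replicate number as a block within each line, 967 genes were called (6.91 %), of which 628 had the higher response in control cells (4.49 %) and 339 in NRF2 ΔC cells (2.42 %). All 3 genes called without the block were among them. The fit without a block was the main test and the block an alternative, and the labels do not say what same-numbered samples share. List counts are given with the block unless stated, and many single genes with both adjusted p-values. An adjusted p-value given alone is from the fit with the block unless another fit is named, and some genes are given by their difference alone. Without the block, edgeR called only DEPDC1, SGOL2 and INHBE.

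The responses of the 2 lines were correlated, and those of NRF2 ΔC cells were spread more widely. Across genes, which are not independent replicates, the 2 sets of log2 fold changes had a Pearson correlation of 0.71 (Spearman 0.72), with an SD of 0.43 (control) and 0.59 (NRF2 ΔC). Within control cells, 523 genes rose (3.74 %) and 572 fell (4.09 %) without the block, against 2309 (16.5 %) and 2774 (19.8 %) with it. Within NRF2 ΔC cells, 1594 rose (11.4 %) and 1607 fell (11.5 %) without the block, against 3465 (24.8 %) and 3757 (26.9 %) with it. Of the 628 genes called with the block as higher in control cells, 401 fell in NRF2 ΔC cells and were not called in control cells, 164 fell in both lines, 42 rose in control cells and were not called in NRF2 ΔC cells, 17 rose in control and fell in NRF2 ΔC cells and 4 rose in both. Of the 339 in the other direction, 173 rose in NRF2 ΔC cells and were not called in control cells, 123 rose in both lines, 30 fell in control cells and were not called in NRF2 ΔC cells, 11 fell in control and rose in NRF2 ΔC cells and 2 fell in both. The plot of the 2 responses against each other shows where 4 gene groups lie relative to equal response.

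**Figure D1:**
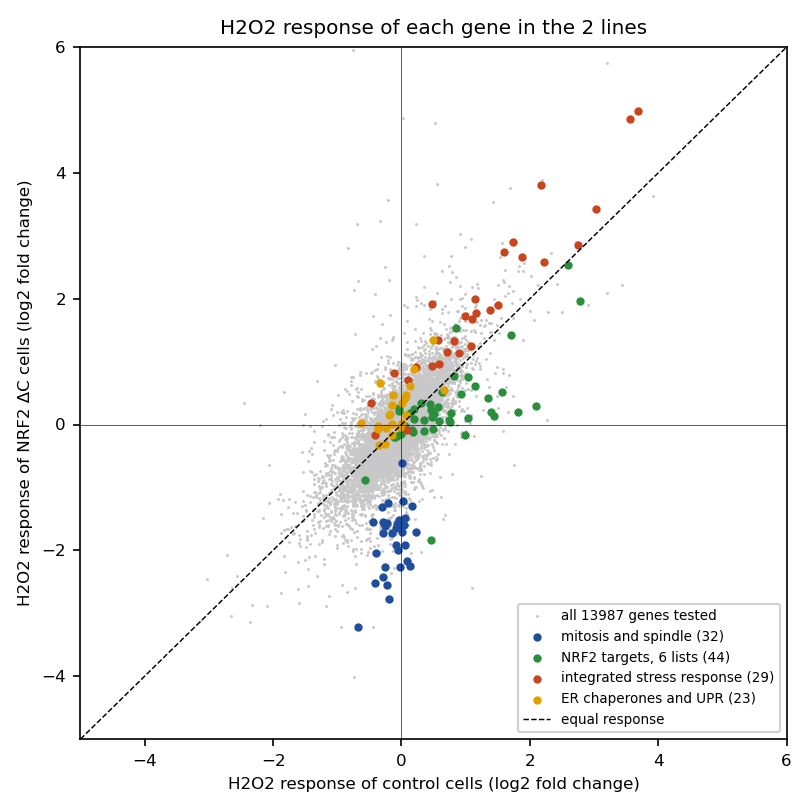
Log2 fold change with H2O2 of each of the 13987 genes tested in control cells (horizontal axis) and NRF2 ΔC cells (vertical axis), from 3 samples a group, with 4 gene groups in colour and a dashed line of equal response. Genes of mitosis lie far below the line at control values near 0, and most genes of the integrated stress response lie above it. Of 44 NRF2 targets, 38 lie below the line and 6 above it, and 27 have differences within 0.5 of 0. The axes run from -5 to 6, and 3 genes lie outside.

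The edited gene and the libraries were examined first. NFE2L2 was at 121, 127 and 126 CPM in untreated and 128, 131 and 138 CPM in H2O2-treated control samples. The NRF2 ΔC samples had 124, 126 and 128 CPM untreated and 142, 149 and 125 CPM with H2O2. Here CPM are counts scaled to the normalised size of each library. The treated control samples lay just above the untreated ones, the NRF2 ΔC ranges overlapped, and no difference in response was detectable (difference -0.05 (SE 0.13, adjusted p = 0.958 without and 0.823 with the block)), but the counts cover the whole gene and do not report on the edited exon. Depth ranged from 16673306 to 25951154 counts on genes. The pair numbered 1 of NRF2 ΔC cells stood apart from the 2 others of its line (chi-square per degree of freedom against them 50.6 to 66.8, compared with 17.5 and 18.3 between those others), and without this pair the count called with the block was 1961 in place of 967. Without another same-numbered pair it was 368 to 514. The 3 calls made without a block were all lost without H2O2-treated control replicate 1, untreated NRF2 ΔC replicate 2 or 3, or H2O2-treated NRF2 ΔC replicate 2 or 3, and 1 was kept without H2O2-treated control replicate 2.

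Genes of mitosis had the largest median difference of the 24 gene lists. All 32 genes of the mitosis and spindle list had a response that was higher in control cells with the block (628 of 13987 genes, 4.49 %, were called in this direction), with differences from 0.61 to 2.57 and a median of 1.62, beside -0.02 over all genes tested. In NRF2 ΔC cells 31 of the 32 fell with H2O2 without the block and 32 with it, with a median log2 response of -1.71. Of all genes, 11.5 % fell in this line without the block and 26.9 % with it. In control cells none was called without the block and 3 fell with it (19.8 % of all genes did), and the median was -0.09. The list's counts summed to 1899, 3385 and 3138 CPM in untreated and 2574, 2757 and 2324 CPM in H2O2-treated control cells, whereas they summed to 2716, 3402 and 4566 CPM in untreated and 983, 752 and 1403 CPM in H2O2-treated NRF2 ΔC cells. The 3 treated NRF2 ΔC samples thus lay below the other 9. In control cells the sum was higher with H2O2 in pair 1, whose untreated sample was the lowest of its group, and lower in pairs 2 and 3. The control median near 0 therefore covers pairs that changed in opposite directions. The count of called members stayed at 31 or 32 whichever same-numbered pair was left out, was 21 with DESeq2 without a block, and was 0 in the edgeR fit without a block, where 30 of the 32 had an unadjusted p under 0.05. In bulk RNA, fewer cells in mitosis and less of these mRNAs per cell cannot be told apart.

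Both genes called without the block in this direction encode proteins of dividing cells and stand outside the list. DEPDC1, a protein expressed in dividing cells, was at 23.6, 37.1 and 36.8 CPM in untreated and 39.1, 36.3 and 32.9 CPM in H2O2-treated control samples. NRF2 ΔC cells had 35.8, 49.2 and 52.4 CPM when untreated and 11.8, 8.77 and 12.7 CPM after H2O2. Treated NRF2 ΔC samples were the lowest, with no overlap with any other group, and the treated control samples lay within or just above the range of the untreated ones. The difference for DEPDC1 was 2.20 (SE 0.29, adjusted p = 0.0183 without and 1.35e-05 with the block). SGOL2 encodes shugoshin 2, which protects centromeric cohesion, and was at 14.8, 24.4 and 22.3 CPM in untreated and 21.1, 19.5 and 16.2 CPM in H2O2-treated control samples. Its NRF2 ΔC values were 28.5, 33.8 and 31.8 CPM untreated and 7.84, 5.39 and 6.18 CPM after H2O2. The treated NRF2 ΔC samples were the lowest and the untreated ones the highest, neither overlapping with the control samples, and the difference was 2.16 (SE 0.27, adjusted p = 0.0183 without and 2.22e-05 with the block).

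Among the members of the list, HMMR, which encodes a spindle-associated hyaluronan receptor, was at 36.7, 66.5 and 71.7 CPM in untreated and 49.7, 47.2 and 55.9 CPM in H2O2-treated control samples. For NRF2 ΔC cells the levels were 49.96, 73.9 and 107 CPM untreated and 10.4, 7.66 and 15.7 CPM with H2O2. The untreated groups overlapped each other and the treated control samples, and the treated NRF2 ΔC samples lay below all of them. The difference for HMMR was 2.57 (SE 0.44, adjusted p = 0.121 without and 7.25e-06 with the block). PLK1, the polo-like kinase that drives mitotic entry, was at 38.04, 79.7 and 87.5 CPM in untreated and 57.1, 65.7 and 52.1 CPM in H2O2-treated control samples. In NRF2 ΔC samples it was at 61.3, 115 and 129 CPM untreated and 14.2, 8.16 and 29.4 CPM with H2O2, with a difference of 2.33 (SE 0.59, adjusted p = 0.321 without and 0.000183 with the block). CDC20, the activator of the anaphase-promoting complex, was at 44.5, 85.4 and 89.2 CPM in untreated and 62.1, 64.9 and 52.3 CPM in H2O2-treated control samples. The NRF2 ΔC samples had 64.0, 104 and 124 CPM untreated and 12.5, 12.2 and 29.9 CPM with H2O2, with a difference of 2.13 (SE 0.50, adjusted p = 0.248 without and 4.36e-05 with the block). For both genes the control ranges overlapped before and after H2O2, whereas the NRF2 ΔC ranges did not.

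Motor proteins and centromere components followed the same pattern. The kinesin KIF20A, needed for cytokinesis, had log2 responses of -0.68 (control) and -3.21 (NRF2 ΔC, difference 2.53), and the centromeric kinesin CENPE had 0.13 and -2.26 (2.39). For KIF14 the values were -0.17 and -2.36 (2.19), for the centrosomal kinase NEK2 -0.03 and -2.27 (2.24) and for the spindle pole protein ASPM 0.09 and -2.18 (2.26). Cyclin B1 (CCNB1, 1.84), its kinase CDK1 (1.46), topoisomerase II alpha (TOP2A, 1.94) and Aurora A (AURKA, 1.97) lay between the extremes of the list. The smallest difference was that of securin, PTTG1 (0.61), followed by survivin, BIRC5 (1.01). Outside the list, the helicase PIF1 had a difference of 2.78, with 1.30, 0.554 and 2.13 CPM in treated NRF2 ΔC samples against 8.53, 8.89 and 7.27 CPM in treated control samples.

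Promoters of genes expressed in mitosis are known to carry the cell cycle genes homology region (CHR, here TTTGAA) and CCAAT boxes. RefSeq windows from 250 bases before to 50 bases after the start (GRCh38.p14) were found for 27 of the 32 genes and searched on both strands. TTTGAA was present in 17 of the 27 (63.0 %), compared with 15.4 % of all 27305 windows, and CCAAT in 22 (81.5 %), compared with 35.7 %. Such matches are a description of the sequence, not evidence of a bound factor. The 120 bases before the start are shown for 3 genes with large differences, 5′ to 3′ on the gene's strand, with both motifs, on either strand, in capitals.
HMMR (chr5:163460512-163460631, plus strand): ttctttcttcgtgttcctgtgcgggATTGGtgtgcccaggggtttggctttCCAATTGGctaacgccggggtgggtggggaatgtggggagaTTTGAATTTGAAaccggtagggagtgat
PLK1 (chr16:23678769-23678888, plus strand): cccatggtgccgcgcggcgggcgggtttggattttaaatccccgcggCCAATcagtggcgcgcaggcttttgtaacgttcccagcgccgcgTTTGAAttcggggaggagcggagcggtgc
CDC20 (chr1:43358861-43358980, plus strand): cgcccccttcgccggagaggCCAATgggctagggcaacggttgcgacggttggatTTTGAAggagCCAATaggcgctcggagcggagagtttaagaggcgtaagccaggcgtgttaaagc

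Genes of DNA replication and repair were also called in this direction, in which 4.49 % of all genes were. Of 19 genes of homologous recombination and Fanconi repair, 14 were called with the block as higher in control cells and none in the other direction, and the median difference was 0.65. Of 35 genes of DNA replication and S phase, 11 were called in this direction, with a median of 0.36. XRCC2, a gene of homologous recombination, was at 6.05, 8.22 and 7.97 CPM in untreated and 9.88, 15.0 and 8.74 CPM in H2O2-treated control samples. NRF2 ΔC cells had 7.46, 10.6 and 13.8 CPM when untreated and 6.54, 4.13 and 7.25 CPM after H2O2. It was higher in all 3 treated than in the untreated control samples and lower in all 3 treated NRF2 ΔC samples than in any untreated one, with a difference of 1.43 (SE 0.39, adjusted p = 0.383 without and 0.00201 with the block). POLE2, a subunit of DNA polymerase epsilon, had log2 responses of -0.12 (control) and -1.36 (NRF2 ΔC, difference 1.24), and the epigenetic regulator UHRF1 had -0.43 and -1.53 (1.10). MCM10, GINS1 and the helicase BLM had differences of 0.96, 0.88 and 0.95, while PCNA, a p53-responsive clamp, was at 0.57 and 0.60 with a difference of -0.03. The repair count was 7, 8 or 9 without pair 1 or 2 of the control cells or pair 2 of the NRF2 ΔC cells. The replication count was 6 or 7 without pair 1 or 2 of the control or pair 3 of the NRF2 ΔC cells. It was 18 without pair 1 of the NRF2 ΔC cells, where 1128 of all 14145 genes were called in this direction. Both counts were 0 without the block. The replication promoters carried TTTGAA in 1 of 30 and CCAAT in 18 (60 %).

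Several known NRF2 targets had a rise with H2O2 in control cells that was smaller or not detected in NRF2 ΔC cells. Over 6 lists, 44 of 52 targets could be tested, and with the block 16 had a higher response in control cells (4.49 % of all genes did) and 1 in NRF2 ΔC cells (2.42 %). Their median difference was 0.30, and their median responses were 0.54 (control) and 0.18 (NRF2 ΔC) on the log2 scale. In control cells 22 of the 44 rose without the block (3.74 % of all genes did), and in NRF2 ΔC cells 8 did (11.4 % of all genes). None of the differences was called by edgeR without the block, where 17 had an unadjusted p under 0.05, and DESeq2 without a block called TXNRD1, AKR1C3, NQO1 and TRIM16L (adjusted p = 6.3e-05, 0.000192, 0.00205 and 0.00319).

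The quinone reductase NQO1 was at 168, 338 and 181 CPM in untreated and 743, 989.6 and 684 CPM in H2O2-treated control samples. Its NRF2 ΔC values were 15.6, 11.3 and 15.1 CPM untreated and 16.8, 14.4 and 16.7 CPM after H2O2. The treated control samples lay above all others, and in NRF2 ΔC cells the untreated and treated ranges overlapped at a level below every control sample. The difference for NQO1 was 1.62 (SE 0.35, adjusted p = 0.211 without and 7.25e-06 with the block). In the same list of quinone, carbonyl and xenobiotic enzymes, 4 of 8 were called with the block and the median was 0.43. AKR1C3 is an aldo-keto reductase with near-identical relatives, and reads that aligned to more than 1 place were not counted on genes. It had 5.800, 2.87 and 3.45 CPM in untreated and 1.20, 0.554 and 1.58 CPM in treated NRF2 ΔC cells. Control cells had 12.1, 11.2 and 8.02 CPM untreated and 14.5, 16.2 and 12.5 CPM treated. The log2 responses of AKR1C3 were 0.46 (control) and -1.83 (NRF2 ΔC), so its difference of 2.30 came mostly from a fall in NRF2 ΔC cells. The prostaglandin reductase PTGR1 (0.60) and the microsomal glutathione transferase MGST1 (0.52) were also called with the block, each lost without 1 control pair (pair 2 and pair 1), whereas the epoxide hydrolase EPHX1 was not (0.35, adjusted p = 0.0667).

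Thioredoxin reductase 1, TXNRD1, was at 913, 1107 and 1013 CPM in untreated and 1945, 2394 and 1868 CPM in H2O2-treated control samples. For NRF2 ΔC cells the levels were 554, 606 and 644 CPM untreated and 629, 663 and 640.5 CPM with H2O2. It rose in control cells to above every other sample, whereas the NRF2 ΔC ranges overlapped, and the difference was 0.93 (SE 0.17, adjusted p = 0.121 without and 3.78e-05 with the block). Glutathione reductase (GSR, 0.67) and sulfiredoxin (SRXN1, 0.54) were called with the block as well, although the call of SRXN1 was lost without pair 1 or 2 of the control or pair 3 of the NRF2 ΔC cells (adjusted p = 0.0972, 0.198 and 0.134). The difference of thioredoxin itself was not called (TXN, 0.29, adjusted p = 0.0935). GCLM, the modifier subunit of glutamate-cysteine ligase, was at 15.0, 24.2 and 19.1 CPM in untreated and 49.8, 78.8 and 42.9 CPM in H2O2-treated control samples. In NRF2 ΔC samples it was at 11.0, 10.6 and 12.0 CPM untreated and 17.4, 17.2 and 13.7 CPM with H2O2. Its treated control samples did not overlap with any other group, and the difference was 1.04 (SE 0.32, adjusted p = 0.486 without and 0.00144 with the block). The catalytic subunit GCLC was not called (0.33, adjusted p = 0.103 with the block).

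SLC7A11, the light chain of the cystine/glutamate antiporter, was at 24.4, 36.8 and 31.0 CPM in untreated and 146, 251.5 and 162 CPM in H2O2-treated control samples. The NRF2 ΔC samples had 11.45, 18.5 and 14.3 CPM untreated and 88.7, 106 and 62.3 CPM with H2O2. It rose in both lines, from a lower level in NRF2 ΔC cells, by log2 fold changes of 2.60 and 2.53, and the difference was 0.07 with a 95 % confidence interval of -0.70 to 0.84. Its heavy chain SLC3A2 rose more in NRF2 ΔC cells (0.85 and 1.54, difference -0.69 (SE 0.29, adjusted p = 0.813 without and 0.00389 with the block)). Both chains are also known targets of ATF4. HMOX1, heme oxygenase 1, rose in both lines and was at 45.9, 61.1 and 66.6 CPM in untreated and 272, 540.3 and 383 CPM in H2O2-treated control samples. NRF2 ΔC cells had 39.04, 54.0 and 45.5 CPM when untreated and 109, 241 and 189 CPM after H2O2. The treated control samples lay above the treated NRF2 ΔC samples, and the difference was 0.83 (SE 0.40, adjusted p = 0.901 without and 0.00545 with the block), with adjusted p = 0.054 without pair 2 of the control cells. Ferritin light chain (FTL, 0.23) was not called.

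Of 12 regulators and genes of autophagy and export, 5 were called with the block. TRIM16L, a tripartite motif gene, was at 12.8, 21.9 and 12.3 CPM in untreated and 59.7, 93.6 and 47.5 CPM in H2O2-treated control samples. Its NRF2 ΔC values were 3.80, 4.54 and 4.32 CPM untreated and 4.04, 6.25 and 5.20 CPM after H2O2, with a difference of 1.81 (SE 0.40, adjusted p = 0.225 without and 9.52e-06 with the block). Its near-identical relative TRIM16 had 1.31, and reads of this pair that aligned to both places were not counted on genes. The taurine transporter SLC6A6 (1.16), the growth inhibitor OSGIN1 (1.20) and the exporter ABCC3 (0.71) were the others. KEAP1 (-0.05), the small MAF protein MAFG (0.05) and the autophagy receptor SQSTM1 (0.11) were not called and had values near 0. MAFG nevertheless rose in both lines, by 0.82 and 0.77.

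The core of the antioxidant response element (TGACNNNGC, both strands) was found in 9 of 32 target promoters (28.1 %), compared with 13.6 % of all promoters, and in 3 of the 10 found among the 16 targets called. Known elements of several targets lie farther upstream than these windows reach. The 120 bases before the start are shown for 2 called targets that have a match there, with the match in capitals.
TXNRD1 (chr12:104215659-104215778, plus strand): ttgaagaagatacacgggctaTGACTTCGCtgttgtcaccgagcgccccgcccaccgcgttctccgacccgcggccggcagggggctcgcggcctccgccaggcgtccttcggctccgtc
GCLM (chr1:93909431-93909550, minus strand): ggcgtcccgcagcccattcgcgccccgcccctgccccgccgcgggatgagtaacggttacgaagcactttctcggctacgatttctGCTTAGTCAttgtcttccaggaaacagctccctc

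The integrated stress response was the group with the most calls in the other direction. Of 29 genes tested, 20 had a higher response in NRF2 ΔC cells with the block (339 of all 13987 genes, 2.42 %, did) and none in control cells, and 28 of 29 differences were negative, with a median of -0.61. Most of these genes had positive responses in both lines, with median log2 responses of 1.08 (control) and 1.73 (NRF2 ΔC). Without the block, 19 rose in control cells (3.74 % of all genes did) and 26 in NRF2 ΔC cells (11.4 % of all genes). Leaving out a same-numbered pair gave 16 to 22 calls, and without the block none was called by edgeR and 2 by DESeq2. ATF4, the transcription factor of this response, was at 184, 188 and 235 CPM in untreated and 389, 446 and 466 CPM in H2O2-treated control samples. For NRF2 ΔC cells the levels were 181, 229 and 236 CPM untreated and 496, 832 and 736 CPM with H2O2. Treated samples lay above untreated ones in both lines and those of NRF2 ΔC cells above those of control cells, with a difference of -0.57 (SE 0.25, adjusted p = 0.848 without and 0.00699 with the block).

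TRIB3, a pseudokinase induced by ATF4, was at 16.9, 16.8 and 19.3 CPM in untreated and 60.7, 92.5 and 87.4 CPM in H2O2-treated control samples. In NRF2 ΔC samples it was at 13.3, 21.6 and 18.9 CPM untreated and 165, 365 and 226 CPM with H2O2. Untreated levels overlapped between the lines, and after H2O2 each NRF2 ΔC sample was above each control sample. The difference for TRIB3 was -1.63 (SE 0.37, adjusted p = 0.248 without and 1.28e-05 with the block). DDIT3, which encodes the factor CHOP, was at 26.7, 24.5 and 30.7 CPM in untreated and 31.1, 35.6 and 47.4 CPM in H2O2-treated control samples. The NRF2 ΔC samples had 28.3, 20.9 and 26.3 CPM untreated and 54.8, 129 and 100.3 CPM with H2O2. Treated control samples lay just above the untreated range and treated NRF2 ΔC samples above all others, and the difference was -1.43 (SE 0.36, adjusted p = 0.321 without and 0.00389 with the block). CHAC1, which degrades glutathione, was at 1.15, 1.75 and 0.825 CPM in untreated and 13.8, 19.4 and 14.4 CPM in H2O2-treated control samples. NRF2 ΔC cells had 0.731, 2.68 and 1.01 CPM when untreated and 36.9, 66.2 and 41.8 CPM after H2O2. CTH, which makes cysteine by transsulfuration, was at 3.44, 4.23 and 3.35 CPM in untreated and 31.3, 55.3 and 42.9 CPM in H2O2-treated control samples. Its NRF2 ΔC values were 2.096, 3.38 and 2.48 CPM untreated and 59.7, 98.99 and 74.9 CPM after H2O2. Both were low in every untreated sample and differed by -1.31 and -1.30, each called with the block (adjusted p = 0.00691 and 0.000144). The call of CHAC1 was lost without control pair 2, and that of ATF4 without control pair 3. ATF3 (-1.15), NUPR1 (-0.85), the mitochondrial PCK2 (-0.79) and the amino acid transporter SLC7A5 (-0.78) were further called members. The lines did not differ detectably in asparagine synthetase (ASNS, 3.03 and 3.42) or in PSAT1 of serine synthesis (2.75 and 2.85), which rose strongly in both.

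The only gene called without the block as higher in NRF2 ΔC cells was INHBE, the inhibin beta E subunit, a secreted factor known to respond to ER stress. It was at 0.353, 0.438 and 0.321 CPM in untreated and 0.409, 0.677 and 0.488 CPM in H2O2-treated control samples. For NRF2 ΔC cells the levels were 0.0975, 0.0776 and 0.092 CPM untreated and 2.30, 3.27 and 2.26 CPM with H2O2, which is low in every group. Its level rose in NRF2 ΔC cells from below to above all control samples, with a fitted difference of -4.27 (SE 0.52, adjusted p = 0.0183 without and 0.000187 with the block). Untreated NRF2 ΔC libraries held 2 counts each, so the size of this difference rests on a few counts.

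Several genes of ER folding also had a higher response in NRF2 ΔC cells. Of 23 genes of ER folding and the unfolded protein response, 9 were called with the block as higher in NRF2 ΔC cells (2.42 % of all genes were) and none in control cells, with a median difference of -0.34. The median log2 responses were -0.15 (control) and 0.16 (NRF2 ΔC). HSPA5 encodes BiP, the main chaperone of the ER, and was at 981, 1188 and 828 CPM in untreated and 757, 905 and 723 CPM in H2O2-treated control samples. In NRF2 ΔC samples it was at 1041, 918 and 848 CPM untreated and 1449.8, 1706 and 1284 CPM with H2O2. The control ranges before and after H2O2 overlapped, and the treated NRF2 ΔC samples lay above all others, with a difference of -0.99 (SE 0.22, adjusted p = 0.227 without and 4.69e-05 with the block). XBP1, a factor activated by splicing under ER stress, was at 50.6, 57.3 and 49.4 CPM in untreated and 66.6, 79.2 and 75.8 CPM in H2O2-treated control samples. The NRF2 ΔC samples had 58.2, 62.2 and 55.5 CPM untreated and 116, 199 and 132 CPM with H2O2. It was highest in the treated NRF2 ΔC samples, with a difference of -0.85 (SE 0.24, adjusted p = 0.407 without and 0.00169 with the block). HERPUD1 (-0.68) and MANF (-0.65) were also called with the block, and MANF fell in control cells (-0.63) while it had 0.02 in NRF2 ΔC cells. The number called was 5 without pair 2 or 3 of the control cells and up to 12 without another pair. Summed over the list, counts were lower with H2O2 in each of 3 control pairs and higher in each of 3 NRF2 ΔC pairs, as the plot of summed levels shows. Without HSPA5, the sum of NRF2 ΔC pair 1 was 10488 CPM untreated and 10437 CPM with H2O2, while those of pairs 2 and 3 were still higher with H2O2.

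The ER stress response element, CCAAT and CCACG with 9 bases between them, was present in 6 of 20 promoters of this list (30 %), compared with 0.0806 % of all promoters, which is 22 of 27305. The C/EBP-ATF response element (TGATGNAA, which binds ATF4) was present in 4 of 20 promoters of the integrated stress response (20 %), compared with 3.67 %. Stretches of 100 to 120 bases are shown for 3 genes, with the element in capitals, HSPA5 and XBP1 up to the start and CHAC1 from 240 to 141 bases before it, where the match is on the opposite strand.
HSPA5 (chr9:125241344-125241463, minus strand): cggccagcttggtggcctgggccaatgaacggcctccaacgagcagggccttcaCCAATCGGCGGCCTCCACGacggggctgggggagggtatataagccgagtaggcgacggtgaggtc
XBP1 (chr22:28800570-28800689, minus strand): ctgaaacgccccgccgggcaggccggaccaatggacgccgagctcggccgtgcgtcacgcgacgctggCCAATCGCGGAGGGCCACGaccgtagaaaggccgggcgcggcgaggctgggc
CHAC1 (chr15:40953231-40953330, plus strand): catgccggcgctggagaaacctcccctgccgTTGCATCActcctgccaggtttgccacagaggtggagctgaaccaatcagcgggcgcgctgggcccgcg

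**Figure D2:**
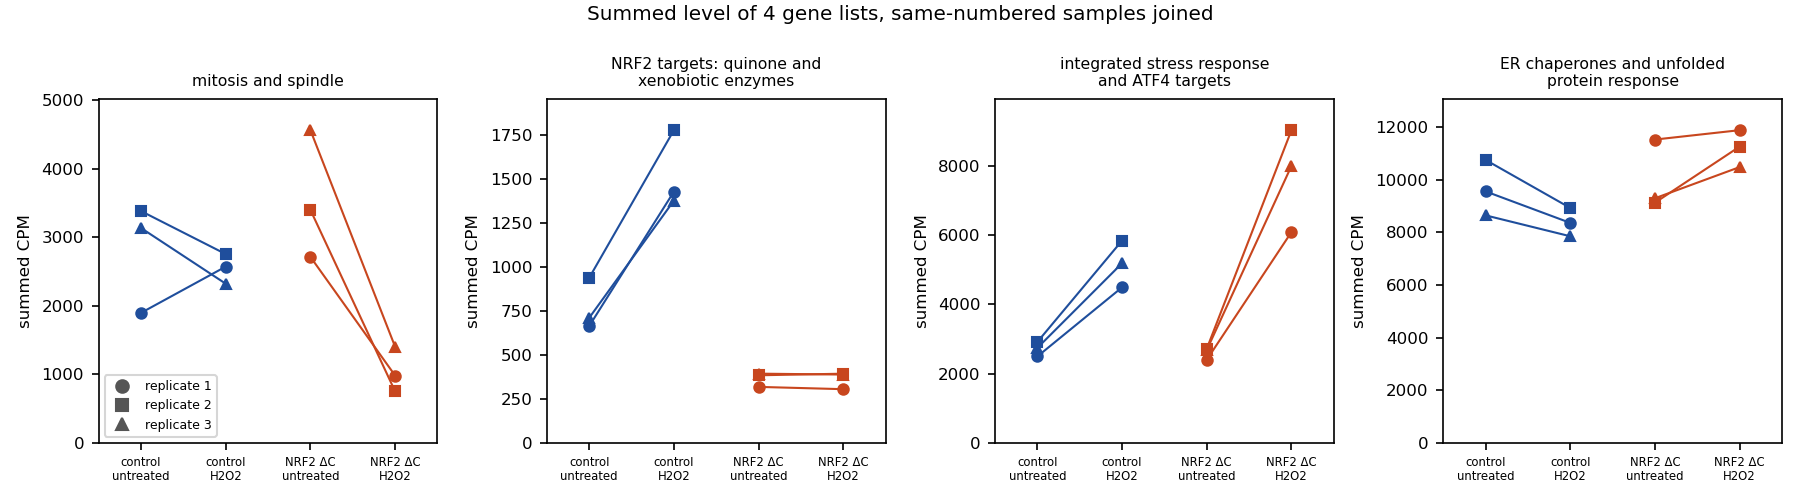
Summed CPM of the tested members of 4 gene lists (vertical axes, linear, from 0) in each sample, with lines joining the untreated and H2O2-treated sample of the same number. The mitotic sum is far lower after H2O2 in all 3 NRF2 ΔC pairs. In control cells it is higher after H2O2 in pair 1 and lower in pairs 2 and 3. The sum of NRF2 targets for quinone and xenobiotic enzymes rises in all 3 control pairs and stays nearly level in the NRF2 ΔC pairs. The stress response sum rises in all 6 pairs, and the chaperone sum falls in control and rises in NRF2 ΔC pairs.

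Most p53 targets rose in both lines. Of 26 tested, 16 rose in control and 21 in NRF2 ΔC cells without the block, with median log2 fold changes of 0.71 and 1.17. Of all genes, 3.74 % rose in control and 11.4 % in NRF2 ΔC cells in this fit. With the block, 9 had a higher response in NRF2 ΔC cells (2.42 % of all genes did) and none in control cells, and the median difference was -0.42. This count of 9, however, was 0 without pair 3 of NRF2 ΔC cells. It was 16 without pair 1 of NRF2 ΔC cells, where 833 of all 14145 genes were called in this direction, and 4 or 5 without any other pair. SESN2, a sestrin that is also a target of ATF4, was at 22.6, 22.3 and 19.4 CPM in untreated and 63.0, 73.1 and 78.6 CPM in H2O2-treated control samples. NRF2 ΔC cells had 28.5, 27.3 and 25.6 CPM when untreated and 125, 281 and 200.02 CPM after H2O2, with a difference of -1.16 (SE 0.31, adjusted p = 0.379 without and 0.00523 with the block). TP53I3, a quinone oxidoreductase, had 0.04 in control and 0.89 in NRF2 ΔC cells, BBC3, the pro-apoptotic PUMA, 0.76 and 1.53, and FDXR, ferredoxin reductase, 1.14 and 1.86, all called with the block. Those of SESN2, TP53I3 and FDXR were lost without NRF2 ΔC pair 3, and that of BBC3 without NRF2 ΔC pair 2 or 3 or control pair 1. CDKN1A, the cell cycle inhibitor p21, rose by 1.67 and 2.21 (difference -0.54, adjusted p = 0.0468 with the block), and the differences of MDM2 (-0.29), RRM2B (-0.16) and CCNG1 (0.05) were not called. In the BCL2 family, 3 of 15 genes were higher in NRF2 ΔC cells (2.42 % of all genes) and 1 in control cells (4.49 %) with the block, namely BBC3, HRK (-0.92) and BCL2L1 (-0.49) against the survival factor BCL2 (0.62), and none of the 4 calls was left without pair 1 of the control or pair 3 of the NRF2 ΔC cells.

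Immediate early and inflammatory genes had a few calls. Of 20 AP-1 and immediate early genes, 5 were higher in NRF2 ΔC cells with the block (2.42 % of all genes were), among them the small MAF protein MAFF, at 10.1, 9.14 and 13.1 CPM in untreated and 6.31, 6.81 and 10.1 CPM in H2O2-treated control samples. Its NRF2 ΔC values were 7.36, 12.6 and 12.3 CPM untreated and 8.34, 28.7 and 20.1 CPM after H2O2. It was lower after H2O2 in each control pair and higher in each NRF2 ΔC pair, though the untreated and treated ranges overlapped in both lines, with a difference of -1.30 (SE 0.52, adjusted p = 0.771 without and 0.00142 with the block). JUNB (-0.82), JUND (-0.71) and the phosphatase DUSP6 (-0.58) were others. The count was 2 or 3 without pair 1 or 2 of the control or pair 3 of the NRF2 ΔC cells. It was 8 without pair 1 of the NRF2 ΔC cells, where 833 of all 14145 genes were called in this direction. Of 15 cytokine and NF-kB feedback genes, RELB (-0.94), NFKB2 (-0.60) and LIF (-0.33) were called in the same direction, all close to the threshold (adjusted p = 0.042, 0.046 and 0.0464), and the count was 0 without pair 1 or 2 of the control or pair 2 or 3 of the NRF2 ΔC cells, 1 without pair 3 of the control cells and 5 without pair 1 of the NRF2 ΔC cells.

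Of all genes, 4.49 % were called as higher in control and 2.42 % as higher in NRF2 ΔC cells, beside which the counts of 4 further lists are given. Of 21 heat shock genes, 3 had a higher response in control cells with the block, HSPA1A (0.98), HSPA1B (0.82) and HSPH1 (0.60), and 1 in NRF2 ΔC cells, HSPB8 (-0.72). HSPA1A and HSPA1B are near-identical copies that fell in NRF2 ΔC cells (-1.17 and -0.81) and had -0.19 and 0.02 in control cells. Of 20 YAP and TGF-beta responsive genes, the matrix protein THBS1 was called as higher in control cells (0.91) and 3 as higher in NRF2 ΔC cells, among them ANKRD1 (-0.81) and ACTA2 (-0.52). Among 16 enzymes that remove H2O2 and superoxide, GPX1 (-0.53) and PRDX5 (-0.37) had a higher response in NRF2 ΔC cells, and catalase did not differ detectably (CAT, 0.23). Of 15 histone cluster genes, HIST2H2BE (-0.87) and H1F0 (-0.69) were called, also as higher in NRF2 ΔC cells. Leaving out a same-numbered pair gave 1 to 3 heat shock genes higher in control cells. It gave 1 to 4 YAP and TGF-beta responsive genes and 1 to 6 enzymes higher in NRF2 ΔC cells. The 6 enzymes were reached without pair 1 of the NRF2 ΔC cells, where 833 of all 14145 genes were called in this direction. The histone count was 1 or 2, as HIST2H2BE was called only without pair 1 or 3 of the NRF2 ΔC cells, and of these 6 fits HSPA1A and HSPH1 were called in 2 each and ACTA2 and PRDX5 in 1 each.

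In 5 other lists, few or no differences between the lines were detected. Of 25 hypoxia-inducible genes, 14 fell in control and 16 in NRF2 ΔC cells without the block (4.09 % and 11.5 % of all genes did). The medians were -0.93 and -0.88, and the median difference was -0.03. The glycolytic regulator PFKFB4 fell by 3.14 and 3.12, and PDK1 by 1.47 and 1.69, on the log2 scale. With the block, CA9 (-0.63) and P4HA2 (-0.42) were called as higher in NRF2 ΔC cells (2.42 % of all genes were), and P4HA2 kept its call only without NRF2 ΔC pair 1. Of 23 genes of cholesterol and fatty acid synthesis, the medians were -0.58 and -0.54, with a median difference of -0.003, and 1 gene was called with the block. Of 23 ribosome biogenesis genes, 10 rose in control and 18 in NRF2 ΔC cells without the block (3.74 % and 11.4 % of all genes did). The medians were 0.64 and 0.77. With the block RRP9 alone was called (-0.47), a call kept only without NRF2 ΔC pair 1. None of 31 proteasome subunits (differences -0.29 to 0.23) and none of 5 metallothionein and zinc export genes (-0.53 to -0.05) was called with the block or without it. Without pair 1 of the NRF2 ΔC cells, however, 3 proteasome subunits and 6 hypoxia genes were called as higher in NRF2 ΔC cells. In that fit, 833 of all 14145 genes were called in this direction. The median half-width of the 95 % confidence interval of a gene's difference, without the block, was 0.63 for hypoxia genes and 0.61 for sterol genes. It was 0.52 for ribosome biogenesis, 0.42 for the proteasome and 0.89 for metallothioneins. These intervals are not adjusted over the 13987 genes, so differences larger than these could also go uncalled without the block. HMMR, with a difference of 2.57, was not called in that fit.

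Further large differences lay outside these lists, in the direction of NRF2 ΔC cells and several from low levels. CSRP1, a LIM domain protein, was at 8.30, 9.82 and 4.49 CPM in untreated and 8.71, 9.86 and 4.34 CPM in H2O2-treated control samples. For NRF2 ΔC cells the levels were 0.0487, 0 and 0 CPM untreated and 0.599, 0.353 and 0.81 CPM with H2O2. It was present at near equal levels in untreated and treated control samples and at or near 0 in untreated NRF2 ΔC cells, so that its difference (-4.85, adjusted p = 0.000424 with the block) rests on a few counts and has no reliable size. TP53I11 likewise had 0, 0.0388 and 0 CPM in untreated NRF2 ΔC cells. BEST1, the chloride channel bestrophin 1 known from the RPE, was at 0.485, 0.389 and 0.504 CPM in untreated and 1.34, 1.65 and 1.46 CPM in H2O2-treated control samples. In NRF2 ΔC samples it was at 0.341, 0.194 and 0.184 CPM untreated and 3.35, 2.92 and 3.54 CPM with H2O2. It rose in both lines and reached the highest levels in treated NRF2 ΔC cells, with a difference of -2.08 (SE 0.39, adjusted p = 0.122 without and 0.0125 with the block). GREB1, known as an oestrogen-responsive gene, rose by 1.42 and 3.54, from 4.81, 4.57 and 3.25 CPM in control and 0.39, 0.0388 and 0.184 CPM in NRF2 ΔC cells (difference -2.11). The adhesion molecule PVRL4 (-2.12), the kinase CDC42BPG (-1.83), the zona pellucida protein ZP3 (-1.73), the sarcomere protein MYOM2 (-1.51), brain creatine kinase CKB (-1.40), FAM59B (-1.80) and FLJ35024 (-1.83) completed the set, all called with the block but not in the edgeR fit without it. Mean levels in untreated NRF2 ΔC cells were only 0.27 CPM for FAM59B and 0.25 CPM for ZP3. CKB instead had a log2 response of -1.09 in control cells, from a mean of 1.68 to 0.79 CPM, and 0.31 in NRF2 ΔC cells, from 20.8 to 25.8 CPM. The call of BEST1 was lost without pair 1 or 3 of the control or pair 3 of the NRF2 ΔC cells (adjusted p = 0.0585, 0.0534 and 0.0647). PVRL4, FLJ35024 and TP53I11 were called in 2 of the 6 fits that left out a pair, those without control pair 3 or NRF2 ΔC pair 1. GREB1 and CDC42BPG were lost without NRF2 ΔC pair 2 or 3, ZP3 without NRF2 ΔC pair 2 and CKB without control pair 2, and the calls of CSRP1, MYOM2 and FAM59B were kept in all 6.

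The 3 changes between same-numbered samples of one line were compared with the 3 of the other. The control changes were all higher in 2044 genes (14.6 %) and all lower in 2099 (15 %). They were all higher in 32 of 32 mitotic genes and 16 of 19 of homologous recombination, and all lower in 22 of 29 of the integrated stress response. Other lists were less uniform. Of 44 NRF2 targets the changes were all higher in 25 and all lower in 3, and of 35 replication genes all higher in 17. They were all lower in 14 of 23 ER genes, 11 of 26 p53 targets (1 all higher), 10 of 31 proteasome subunits (1 all higher) and 8 of 16 enzymes that remove H2O2 and superoxide (3 all higher).

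The cell type was examined with marker genes. Of 13 RPE and epithelial markers 8 were tested, with OTX2 at 113 to 180.0 CPM and MITF at 68.7 to 186 CPM over the 12 samples, while RPE65, TTR, TYR and DCT, which mark mature or pigmented RPE, were at 0 in 10, 11, 3 and 6 of the 12. The sum of the 13 markers was 1356 to 1385 CPM in untreated and 954 to 1027 CPM in treated control cells. In NRF2 ΔC cells it was 1301 to 1427 CPM and 943 to 1055 CPM, so the ranges overlapped between the lines in both conditions. Most of the sum came from the epithelial keratins KRT8 (424 to 679 CPM) and KRT18 (253 to 467 CPM), so the overlap says little about RPE identity. With the block, 1 of the 8 was called as higher in control cells (4.49 % of all genes were) and 1 in NRF2 ΔC cells (2.42 %). Of 5 photoreceptor and neuron, 4 endothelial, 4 leukocyte and 7 mesenchymal markers, 1, 0, 1 and 3 were expressed enough to be tested, and no difference in response was called among these 5. The endothelial sum was at most 0.971 CPM, PTPRC, CD3E and COL1A2 were at 0 in 10, 12 and 11 samples, and the leukocyte sum of 77.9 to 146 CPM was nearly all CD68. The photoreceptor and neuron sum was 5.90 to 7.03 CPM in control and 0.30 to 0.78 CPM in NRF2 ΔC samples, mostly from PDE6B. The mesenchymal sum was high in all 12 samples (4488 to 7194 CPM), as vimentin (VIM, 4152 to 6839 CPM) and PDGFRB (85.5 to 454 CPM) were expressed throughout.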

How the data were processed

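RNA-seq was analysed in 12 samples, 3 of each of 4 groups, and the 6 samples with another treatment entered only 1 alternative. Per the labels and methods, the authors ran FastQC, aligned reads to hg19 with TopHat2 2.1.0 and Bowtie, and counted them with HTSeq 0.11.2; the deposited values are raw read counts per gene symbol. The annotation is not given in the sources used here. The TruSeq RNA v2 library kit does not mark strand, so reads of overlapping and antisense genes cannot be separated. Reads that aligned to more than 1 place (8.35 to 10.4 % of all counts) were not counted on genes, which may lower the counts of near-identical copies. In each file, 5 summary lines that name no gene were set aside, and 72.1 to 74.1 % of all counts were on genes.

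Genes were filtered with edgeR's filterByExpr, scaled by TMM and fitted with edgeR 4.0.16 (R 4.3.3, quasi-likelihood test, Benjamini-Hochberg adjustment over 13987 genes, threshold 0.05). The contrast was the H2O2 response of control cells minus that of NRF2 ΔC cells. The alternatives were DESeq2 1.42.0, other scalings and filters, a fit of all 18 samples, replicate blocks, and leaving out samples. The replicate numbers pair samples within each line, judged by correlated deviations from group means over 10971 genes with at least 5 CPM (0.521 to 0.821 in 6 pairs), and not throughout across lines (-0.258 to 0.717). The labels do not say that replicates were separate cultures, so p-values measure the spread between these samples, which may be technical. The gene lists, the members and the comparison were chosen with earlier results of these data known. Genes were named by this rule: NFE2L2, KEAP1 and a set of NRF2 targets and ATF4; in each direction up to 12 genes with the largest differences and a mean of at least 1 CPM, called without a block or, to fill the number, called with the block within each line and with changes of same-numbered samples that did not overlap between the lines; and up to 4 members of each list. INHBE, with a mean below this, was named as 1 of the 3 genes called without a block, and other list members and markers after their values were seen. The scripts were tested on simulated data. Promoter sequences are from RefSeq. Results on some single genes are not reported here.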

Additional observations from a re-analysis of the deposited data

Results flagged for a closer look

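Genes whose H2O2 response differed between the 2 lines by the test of the difference itself, in edgeR's quasi-likelihood test without a replicate block, were DEPDC1 (control minus NRF2 ΔC 2.20, log2), SGOL2 (2.16) and INHBE (-4.27). DEPDC1 and SGOL2 were called in 6 and INHBE in 7 of 12 fits that each left out 1 sample, with adjusted p up to 0.0949. All 3 were called in each of the 6 fits with the block that left out a same-numbered pair. DESeq2 with the block called DEPDC1 and SGOL2 and gave no adjusted p for INHBE, which had 2 counts in each untreated NRF2 ΔC library, so the size of its difference rests on a few counts.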

How the results depend on the processing

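Without a block, 3 genes were called (2 higher in control cells, 1 in NRF2 ΔC cells), and 3 also with RLE or upper-quartile scaling or a filter of 1 CPM. DESeq2 called 77 (61 and 16), no filter 13 (12 and 1) and a fit of all 18 samples 19 (16 and 3). The replicate block within each line called 967 (628 and 339), and a block shared by the lines 165 (125 and 40). DESeq2 with the block within lines, chosen after seeing the data, called 882 (599 and 283). Leaving out 1 sample gave 0 to 11 calls (0 to 7 and 0 to 4), the most without H2O2-treated NRF2 ΔC replicate 1, and 5 without untreated control replicate 2 or untreated NRF2 ΔC replicate 1. With the block, leaving out a same-numbered pair gave 379 calls (270 and 109) without control pair 1, 368 (242 and 126) without control pair 2, 506 (370 and 136) without control pair 3, 1961 (1128 and 833) without NRF2 ΔC pair 1, 514 (334 and 180) without NRF2 ΔC pair 2 and 437 (311 and 126) without NRF2 ΔC pair 3. The cause was not tested. Differences near 0 changed sign when a sample was left out, with ranges of -0.22 to 0.25 for SLC7A11, -0.073 to 0.17 for MAFG, -0.48 to 0.013 for MT2A, -0.21 to 0.064 for KEAP1, -0.032 to 0.28 for SQSTM1, -0.12 to 0.0060 for NFE2L2 and -0.45 to 0.023 for MT1E. With the block, the values that changed sign were -0.060 for SLC7A11 and -0.033 for MAFG without control pair 2, 0.0100 for NFE2L2 without NRF2 ΔC pair 2, and 0.039 for KEAP1 and -0.14 for SLC7A11 without NRF2 ΔC pair 3. With 3 samples a group the median half-width of the 95 % interval over all genes was 0.51 without the block, and depth was not varied.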
